A study of Mus musculus with 12 samples.

Results

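The group VEH-WT, wild-type mice without the drug combination, was compared with the mean of the 3 other group means of the study, VEH-CD, VERCUR-WT and VERCUR-CD. Of the 12 mice whose cortical RNA was sequenced, 3 belonged to VEH-WT and 9 to the other groups, with 3 in each. The genes described are the 34 of 17111 tested (0.199%) that were selected on this contrast: limma, which fits a linear model to each gene and borrows information on variance from the others, gave them a Benjamini-Hochberg adjusted p below 0.05, and they were more than 25% higher or lower. Of these, 28 were higher (0.164%) and 6 lower (0.0351%) in VEH-WT. Because this contrast chose the genes, its differences are given below as a description. The contrasts between the 3 other groups did not enter the choice of the 34, although they share each gene's estimate of the spread with it. P-values of VEH-WT against the others, given below for genes and for lists, come from the contrast that chose the genes and are part of the description.

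In CD mice 1 copy of the interval of chromosome 5 between Gtf2i and Fkbp6 is missing, and the WT mice have both. The deletion models Williams-Beuren syndrome, a neurodevelopmental disorder with anxiety, motor and social signs. All mice were 16 weeks old according to the labels. The VERCUR groups had received curcumin at 60 mg/kg/day, a phenol of turmeric, together with verapamil at 10 mg/kg/day, a blocker of voltage-dependent calcium channels, for 1 month from 8 weeks of age. The study's methods give a lower verapamil dose and an earlier end, and they give the control mice a vehicle, whereas the labels call these mice untreated. According to the methods, the mice were males on a mainly C57BL/6J background from a cross with the Thy1-YFP line, which labels pyramidal neurons, and the frontal part of the cortex was taken. VERCUR-WT shares its genotype with VEH-WT and differs from it in treatment, VEH-CD shares its treatment and differs in genotype, and VERCUR-CD differs in both.

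Cortical tissue contains genes that neurons switch on within minutes of firing. These immediate early genes mostly encode transcription factors, among them Fos, Egr and Kruppel-like factors, and they act on slower effector genes that modify synapses. Calcium entry and cyclic AMP reach many of them through the transcription factor CREB, and glucocorticoids, heat shock and protein folding stress switch on other short-lived programmes. In bulk tissue, a change in the number of cells of a type and a change in RNA per cell cannot be told apart.

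The 34 genes fell into 3 kinds. In the first, 16 genes lay inside the deleted interval. In the second, 5 genes lay outside it and the VEH-WT values overlapped those of the 9 other mice. In the third, 13 genes on 12 chromosomes, the 3 VEH-WT values lay entirely above or entirely below the values of the 9 others. The F test among VEH-CD, VERCUR-WT and VERCUR-CD was passed by 21 of the 34, the 16 deleted genes and the 5 of the second kind, against 29 of all 17111 genes tested (0.169%). Over all genes tested, VEH-WT lay above the 9 others in 245 genes (1.43%) and below them in 165 (0.964%). The overlap uses the same values as the choice of the genes and is therefore a description.

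**Figure D1:**
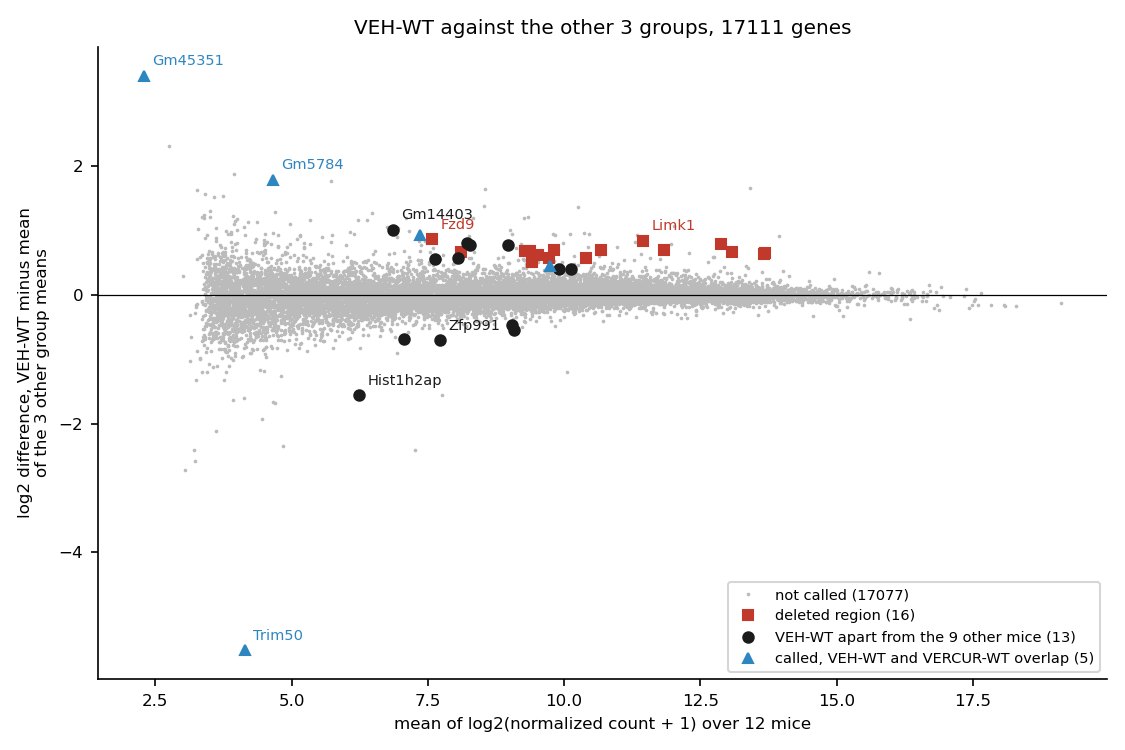
Log2 difference of VEH-WT from the mean of the 3 other group means (vertical axis) against the mean of log2(normalized count + 1) over 12 mice (horizontal axis), with 1 point per gene for 17111 genes. The 16 called genes of the deleted region (squares) and the 13 genes in which VEH-WT lay apart from the 9 other mice (circles) lie at intermediate and high levels, and the 5 other called genes (triangles) include the extremes, Gm45351 above and Trim50 below.

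The unit used throughout is the normalized count, the number of reads on a gene divided by 1 factor per mouse, and differences are on the scale of log2(normalized count + 1), which understates the changes of low genes. Between 40290000 and 56480000 reads per mouse fell on the listed genes, and 41960000 to 56480000 in VEH-WT. Within groups, the log2 values of any 2 mice correlated at 0.986 to 0.994 over the genes. The deleted genes matched the genotype labels in all 12 mice.

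Upstream sequences of 4 genes are shown first, since these are genes on which the description turns. Klf2, Klf4 and Gadd45a are called genes with higher values in VEH-WT, and Fos is the classical immediate early gene, which had higher values in each VEH-WT mouse than in the 9 others but was not called. The 250 bases before each RefSeq start are given 5′ to 3′ (RefSeq, GRCm38.p6), with the half-site of the cyclic AMP response element, TGACG on either strand, in capitals.
Klf2, chr8:72318812-72319061, plus strand: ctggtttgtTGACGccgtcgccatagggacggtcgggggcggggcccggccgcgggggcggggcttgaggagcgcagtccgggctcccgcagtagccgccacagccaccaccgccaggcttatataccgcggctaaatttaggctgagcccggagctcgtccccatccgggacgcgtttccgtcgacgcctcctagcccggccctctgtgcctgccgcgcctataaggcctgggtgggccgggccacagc
Klf4, chr4:55532476-55532725, minus strand: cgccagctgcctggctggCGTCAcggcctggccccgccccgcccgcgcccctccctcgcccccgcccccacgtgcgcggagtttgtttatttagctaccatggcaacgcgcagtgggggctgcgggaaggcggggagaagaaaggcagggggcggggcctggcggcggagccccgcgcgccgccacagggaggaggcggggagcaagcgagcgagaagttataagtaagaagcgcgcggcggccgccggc
Gadd45a, chr6:67037408-67037657, minus strand: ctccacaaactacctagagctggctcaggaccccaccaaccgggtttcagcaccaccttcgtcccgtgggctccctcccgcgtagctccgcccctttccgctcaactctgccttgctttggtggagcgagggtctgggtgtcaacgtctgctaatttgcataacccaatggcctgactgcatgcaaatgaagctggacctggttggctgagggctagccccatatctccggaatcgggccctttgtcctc
Fos, chr12:85473640-85473889, plus strand: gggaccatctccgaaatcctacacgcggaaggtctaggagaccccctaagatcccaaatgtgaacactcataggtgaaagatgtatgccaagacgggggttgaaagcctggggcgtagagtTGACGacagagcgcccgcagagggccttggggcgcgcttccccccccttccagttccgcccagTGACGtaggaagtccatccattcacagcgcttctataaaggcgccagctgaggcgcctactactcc

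The half-site occurred 1 time in Klf2, 1 time in Klf4, on the opposite strand, and 2 times in Fos, where the copy nearest the start began 66 bases before it. No copy lay in the 250 bases of Gadd45a. G and C made up 71.2% of the bases of Klf2, 74% of Klf4, 59.2% of Gadd45a and 58.4% of Fos. Of the 26 immediate early genes listed, 21 were matched by symbol, and 18 of these (85.7%) held TGACG on either strand, compared with 19.8% of the 27025 genes in the table. These 27025 genes were not limited to the genes tested here and were not matched for their content of G and C. They had 32851 promoter sequences, and a gene with more than 1 listed start was counted if any of its sequences matched. The GC box GGGCGG, a motif of GC-rich promoters that can overlap TGACG only at its ends, was found in 19 of the 21 (90.5%) and in 35.4% of all genes. The full element TGACGTCA, which contains the half-site, was present in 3 of the 21, namely Btg2, Maff and Plk2, and in 1.77% of all genes. A loose form of the AP-1 site, TGANTCA with any base at N, was present in 1 of the 21 (Csrnp1) and in 7.82% of all genes. The E-box CACGTG was present in 5 of the 21 and in 6.86% of all genes. The CArG box of the serum response element was present in 1 of the 21 (Egr2) and in 1.62% of all genes. Of the 13 genes with VEH-WT apart, 8 had a promoter in the table. The half-site was held by 2 of these (25%), Klf2 and Klf4, a share near the 19.8% of all genes. These matches describe the letters in this window and not the binding of a factor.

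Among the 13 genes with VEH-WT apart, 8 were higher in VEH-WT. Klf2 (ENSMUSG00000055148.7, chromosome 8, 72319033 to 72321656, plus strand, GRCm38 with GENCODE M21 here and below) encodes a Kruppel-like transcription factor that is abundant in endothelial cells and is also induced by stimuli. Its normalized counts in the VEH-WT mice were 637, 925 and 725, and in the 9 others 361 to 559.7 (median 421). VERCUR-WT, with 518, 421 and 559.7, had the nearest group mean, although its second mouse lay below VERCUR-CD 1 and VERCUR-CD 3. VEH-WT averaged 762 ± 148 (SD, n = 3) and VEH-CD 388 ± 27.3 (SD, n = 3), and the log2 difference from the mean of the other groups was 0.78 (standard error 0.11), a fold of 1.72. Klf4 (ENSMUSG00000003032.8, chromosome 4, 55527143 to 55532466, minus strand), a related factor known from immediate early responses and from pluripotency, had 389, 630.4 and 409 in VEH-WT against 208 to 325 (median 266) in the others, a fold of 1.72. Here 1 mouse, VEH-WT 2, was far above its 2 groupmates.

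Gadd45a (ENSMUSG00000036390.8, chromosome 6, 67035096 to 67037457, minus strand), a stress-induced gene for a protein of growth arrest and DNA demethylation, had 398, 558 and 422 in VEH-WT. In VERCUR-WT it had 289.6, 329 and 333, in VEH-CD 209, 265 and 228, and in VERCUR-CD 298, 228 and 197. The co-treated WT mice were thus above all VEH-CD mice and below all VEH-WT mice. The log2 difference of VEH-WT was 0.80 (standard error 0.13), a fold of 1.75. Tent5a (ENSMUSG00000032265.14, chromosome 9, 85320439 to 85327348, minus strand), which encodes a poly(A) polymerase, had 307, 420.3 and 347 in VEH-WT and 202 to 279 (median 244) in the 9 others, a fold of 1.49. Within the others, the VEH-CD mice, with 202, 213 and 214, were the lowest.

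Pcdhb3 (ENSMUSG00000045498.1, chromosome 18, 37300799 to 37304585, plus strand) belongs to the clustered beta protocadherins, adhesion molecules whose stochastic expression gives single neurons an identity. It had 261, 268 and 261 in VEH-WT and 155 to 203 (median 177) in the others, a fold of 1.48, and the 3 VEH-WT values lay close together. Fam43a (ENSMUSG00000046546.3, chromosome 16, 30599723 to 30602797, plus strand) had 1170.2, 1127 and 1249.8 against 819 to 1029.8 (median 859), a fold of 1.32. Cdr2l (ENSMUSG00000050910.5, chromosome 11, 115381916 to 115396132, plus strand), a paralog of the antigen of paraneoplastic cerebellar degeneration, had 1367, 1472 and 1280.2 against 959 to 1127 (median 1037), also a fold of 1.32. Both were well expressed and changed little in size. Gm14403 (ENSMUSG00000094786.1, chromosome 2, 177498215 to 177509763, plus strand), a gene model from a cluster of near-identical zinc finger genes whose reads could have been shared, had 191, 207 and 190.3 against 62.8 to 154 (median 99.4), and its fold of 2.02 was the highest of the 8.

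The other 5 genes were lower in VEH-WT. Hist1h2ap (ENSMUSG00000094777.2, chromosome 13, 21833026 to 21833507, minus strand) encodes a replication-type histone H2A. It has near-identical copies in the histone clusters, so its counts are uncertain. It had 44.8, 31.2 and 25.2 in VEH-WT, 65.1, 104 and 103 in VEH-CD, 70, 94.5 and 123 in VERCUR-WT and 145, 87.2 and 119 in VERCUR-CD. The log2 difference was -1.56 (standard error 0.23), a ratio of 0.34. Zfp991 (ENSMUSG00000067916.9, chromosome 4, 147132038 to 147180579, plus strand), a zinc finger gene with close relatives, had 168, 122 and 151 in VEH-WT, 210.1, 183 and 195 in VERCUR-WT and values from 238 to 293 in the CD mice. The co-treated WT mice lay between VEH-WT and the CD mice without overlap with either.

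Lemd1 (ENSMUSG00000079330.8, chromosome 1, 132191431 to 132259227, plus strand), which encodes a protein with a LEM domain, had 426, 384 and 435 in VEH-WT, 510.4, 451 and 524 in VERCUR-WT, 610.1, 559 and 673 in VEH-CD and 607, 603 and 646 in VERCUR-CD, with the same order of groups and a ratio of 0.73. The lincRNA Gm4544 (ENSMUSG00000116056.1, chromosome 15, 102657111 to 102660468, plus strand) had 79.6, 105 and 97.3 in VEH-WT and 109.5 to 186 (median 149.6) in the others, a ratio of 0.62. The lincRNA Gm43672 (ENSMUSG00000106019.1, chromosome 3, 22074412 to 22076142, minus strand) had 498, 356 and 389 against 539 to 672 (median 596), a ratio of 0.69. In Gm43672 the 3 other groups had nearly the same mean, and VEH-WT 1 was the closest to them.

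**Figure D2:**
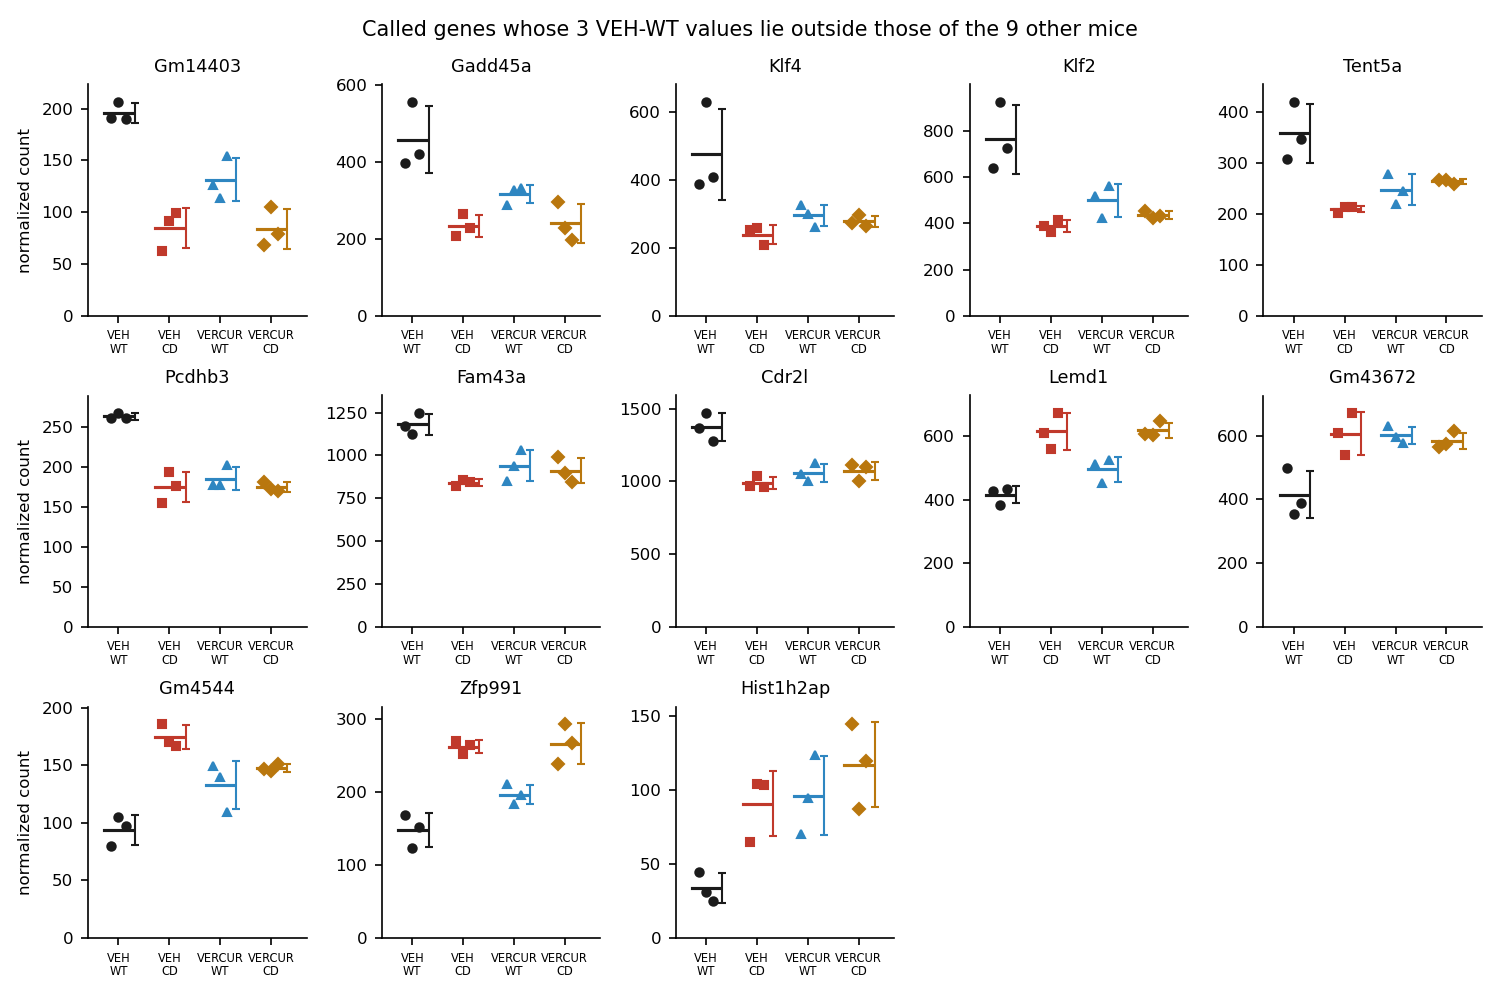
Normalized counts (vertical axes, each from 0) of the 13 called genes with VEH-WT apart, with 1 point per mouse in the 4 groups, a line at the group mean and a bar of ± 1 SD (n = 3). In the first 8 panels the VEH-WT mice lie above the other 9 mice and in the last 5 below them, and in Klf4 the value of 1 VEH-WT mouse, 630.4, lies far above the 2 others.

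The 3 other groups were also compared among themselves. The 13 genes were set apart from the rest of the 34 by the lack of overlap with the 9 other mice, which favours genes with like values in those mice, so the tests among them are not independent of that division and are given as values. Of the 13 genes, none passed the F test after adjustment (smallest adjusted p = 0.956, limma with Benjamini-Hochberg adjustment). At an unadjusted p under 0.05 there were 5 of the 13, compared with 629 of all 17111 genes (3.68%): Lemd1, Zfp991, Gm14403, Gadd45a and Gm4544. In these 5 genes VERCUR-WT had the mean nearest to VEH-WT. VERCUR-CD against VERCUR-WT called 25 genes of all tested (0.146%), among them none of the 13, and VERCUR-CD against VEH-CD called no gene (0% of those tested), with 605 genes at an unadjusted p under 0.05 and no gene called by voom on the recovered reads either. The log2 difference of VERCUR-CD from VERCUR-WT was -0.65 in Gm14403 (standard error 0.20), -0.41 in Gadd45a (0.16), 0.43 in Zfp991 (0.13) and 0.32 in Lemd1 (0.09). For Cdr2l it was 0.01 (0.08) and for Pcdhb3 -0.08 (0.11). An adjusted p above the threshold does not show that the 3 groups were alike.

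Set side by side, VEH-WT differed from VEH-CD by a median absolute log2 difference of 0.84 over the 13 genes, from VERCUR-CD by 0.65 and from VERCUR-WT by 0.52. These comparisons share the 3 VEH-WT mice. For Klf2 the 3 log2 differences were 0.96, 0.79 and 0.60, for Tent5a 0.76, 0.43 and 0.53, and for Hist1h2ap -1.41, -1.77 and -1.48, in the same order. In 12 of the 13 genes the difference from VEH-CD exceeded that from VERCUR-WT in size, with Hist1h2ap as the exception. The order was not particular to these genes in one respect. Of all genes tested, 2020 (11.8%) had an unadjusted p under 0.05 (limma) for VEH-WT against VEH-CD. Against VERCUR-WT there were 893 (5.22%). The share of all genes with the same order of sizes was not counted. Tested directly, VEH-CD against VERCUR-WT had an unadjusted p under 0.05 for 6 of the 13, and for none after adjustment, compared with 728 of all genes tested (4.25%).

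The 16 deleted genes were higher in VEH-WT than in the mean of the others, of which 2 groups carry the deletion. The largest difference in the interval was that of Fzd9, a Wnt receptor (ENSMUSG00000049551.2, chromosome 5, 135248938 to 135251230, minus strand), with 303, 271 and 327 in VEH-WT and 353, 296 and 294 in VERCUR-WT against 139, 99.8 and 143 in VEH-CD and 106, 119 and 112 in VERCUR-CD. The smallest among the called genes was that of Gtf2ird1, a transcription factor (ENSMUSG00000023079.14, chromosome 5, 134357656 to 134456716, minus strand), with 906, 920.2 and 839 in VEH-WT, 876, 800.2 and 959.9 in VERCUR-WT, 559, 559.8 and 516 in VEH-CD and 551, 505 and 457 in VERCUR-CD. In both genes the WT groups overlapped each other and lay above both CD groups. Limk1, a kinase of the actin regulator cofilin, had 4240.2, 4282 and 4567 in VEH-WT and 1840.1, 1823 and 1716 in VERCUR-CD. Against VERCUR-WT, in a comparison without VEH-WT mice, VERCUR-CD fell by 1.48 on the log2 scale in Fzd9 (adjusted p = 0.00023), by 1.22 in Limk1 (adjusted p = 4.44e-07) and by 0.80 in Gtf2ird1 (adjusted p = 0.00101, limma with Benjamini-Hochberg adjustment). All 16 passed that test, none passed VERCUR-CD against VEH-CD, and none passed VEH-WT against VERCUR-WT. Of the 19 genes of the interval that were tested, Eln, Mlxipl and Lat2 were not called in VEH-WT against the others.

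The 5 remaining genes followed the genotype as well, outside the interval, and all 5 passed VERCUR-CD against VERCUR-WT. Trim50, a ubiquitin ligase gene beside the deletion (ENSMUSG00000053388.10, chromosome 5, 135353295 to 135368005, plus strand), was listed at 0, 0 and 0 in VEH-WT and at 0, 1.85 and 0 in VERCUR-WT, and had 294, 230.5 and 248 in VEH-CD and 276, 281 and 253 in VERCUR-CD. With all VEH-WT mice at 0 it has no measured fold. The lincRNA Gm45351 (ENSMUSG00000092178.2, chromosome 7, 9868880 to 9876966, minus strand) had 20.2, 38.1 and 27.8 in VEH-WT and 9.5, 13.9 and 21.6 in VERCUR-WT, while 5 of the 6 CD mice were at 0 and the other at 1.2. Gm5784, also a lincRNA (ENSMUSG00000093908.2, chromosome 12, 19387809 to 19433081, plus strand), had 70.6, 41.6 and 86.9 in VEH-WT, 42.7, 72.2 and 84.5 in VERCUR-WT, 9.14, 15 and 5.99 in VEH-CD and 8.72, 8.99 and 7.7 in VERCUR-CD. Ighg2c, the constant region of an immunoglobulin G (ENSMUSG00000076612.8, chromosome 12, 113285325 to 113288932, minus strand), had 273, 285 and 237 in VEH-WT, 233, 223 and 248 in VERCUR-WT, 151, 125 and 104 in VEH-CD and 106, 91.7 and 71.2 in VERCUR-CD. Gm14295 (ENSMUSG00000078877.11, chromosome 2, 176798612 to 176811223, plus strand), from the same family of zinc finger genes as Gm14403, ranged from 966 to 1175 in the 6 WT mice and from 599.6 to 804 in the 6 CD mice. Between VERCUR-CD and VERCUR-WT the log2 difference was -2.78 in Gm5784 (adjusted p = 0.00307), -1.39 in Ighg2c (adjusted p = 0.00143) and -0.69 in Gm14295 (adjusted p = 0.00897). In 20 of these 21 genes of the first and second kind the ranges of VEH-WT and VERCUR-WT overlapped, the exception being Dnajc30, where the values of VEH-WT (1849, 1772 and 1821) lay just below those of VERCUR-WT (1869, 1933 and 1997).

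The genes at the edge of the choice were also described. Gm14295 (adjusted p = 0.0463) and Gm43672 (adjusted p = 0.0488) lay just inside the threshold of limma's adjusted p. Sik1 (adjusted p = 0.0519) and Vasn (adjusted p = 0.0535) lay just outside it. Sik1, a kinase that is induced by cyclic AMP and restrains CREB signalling (ENSMUSG00000024042.7, chromosome 17, 31844250 to 31855804, minus strand), had 937, 1622 and 1180.3 in VEH-WT and 334 to 803 (median 449.6) in the others. The VEH-WT values of Sik1 lay above those of all the others. Its log2 difference of 1.21 exceeded in size that of every called gene with VEH-WT apart except Hist1h2ap. Vasn, which encodes a binding protein of the growth factor TGF-beta, had 745, 1019.5 and 722 in VEH-WT and 494 to 668 (median 549) in the others. Git1, Ddn and Rims3 had an adjusted p under 0.05 and too small a fold. Rims3, a gene of the presynaptic active zone, had 15329, 15771 and 16154 in VEH-WT and 12424 to 14063 (median 13456) in the others, so that VEH-WT lay above all of them. Git1, a scaffold of synaptic signalling, followed the genotype instead, with 31022, 29102 and 29731 in VEH-WT, 28541, 30186 and 31419 in VERCUR-WT and 43760.0, 40368 and 43545 in VEH-CD.

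Immediate early genes were higher in VEH-WT as a list, although Klf4 was the only one called. Of the 26 genes, 26 had a higher mean in VEH-WT than in the mean of the others, 18 of them at an unadjusted p under 0.05, compared with 1048 of all 17111 genes (6.12%) in this direction and 775 (4.53%) in the other. The median log2 difference was 0.73, and over all genes tested it was 0.00. Against single groups the median was 0.95 from VEH-CD, 0.67 from VERCUR-WT and 0.51 from VERCUR-CD. The list was chosen with earlier results of these data known, and its members share the 12 mice, so these are counts and not a test of the list. In 8 genes, Arc, Fos, Maff, Fosb, Fosl2, Klf4, Midn and Ier5, the 3 VEH-WT mice lay above the 9 others. Over all 17111 genes this held for 245 (1.43%). Apart from Klf4, Arc and Fos, the 8 genes were named after their values were seen.

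Arc (ENSMUSG00000022602.14, chromosome 15, 74669083 to 74672570, minus strand), which encodes a synaptic protein that removes glutamate receptors, had 20198, 34120.1 and 25465 in VEH-WT. In VEH-CD it had 2658, 7209.8 and 8603, in VERCUR-WT 14339, 1948 and 19267 and in VERCUR-CD 16726, 8537 and 12694. VERCUR-WT 2 was the lowest of the 12 mice, and VERCUR-WT 3 nearly reached the lowest VEH-WT mouse. The log2 difference of 1.67 (standard error 0.56) was larger than that of any called gene outside the deleted interval other than Gm45351, Gm5784 and Trim50, but did not pass (adjusted p = 0.297, limma with Benjamini-Hochberg adjustment). Fos (ENSMUSG00000021250.13, chromosome 12, 85473890 to 85477273, plus strand) had 1965, 3081 and 2587 in VEH-WT, 278, 1279 and 819 in VEH-CD, 1704, 596 and 1784 in VERCUR-WT and 1409.9, 747 and 1335 in VERCUR-CD, with a log2 difference of 1.37 (0.42, adjusted p = 0.254). Here too VERCUR-WT 2 was the lowest of its group.

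Further genes of the list, from the Fos, Jun and Egr families, differed in their spread. Fosb had 881, 2414 and 1465 in VEH-WT and 539 to 864 (median 776) in the 9 others, and Fosl2 had 1506, 3428 and 2315 and 809 to 1392 (median 1292). In both genes the 9 others lay close together and VEH-WT 2 stood highest. Jun, with 2840.2, 2570.2 and 2643 in VEH-WT and 2139 to 3027 (median 2519) in the others, overlapped and differed by only 0.09 on the log2 scale. Egr2 had 527, 1346 and 980.4 in VEH-WT and 67.4 to 668 (median 279) in the others, where VERCUR-WT 3 exceeded the lowest VEH-WT mouse. Egr4, with 2995, 5947 and 4246 and 1484 to 3018 (median 2366), was the only gene of the list with an unadjusted p under 0.05 among the 3 other groups (adjusted p = 0.956, limma F test with Benjamini-Hochberg adjustment), and no gene of the list passed that test after adjustment.

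**Figure D3:**
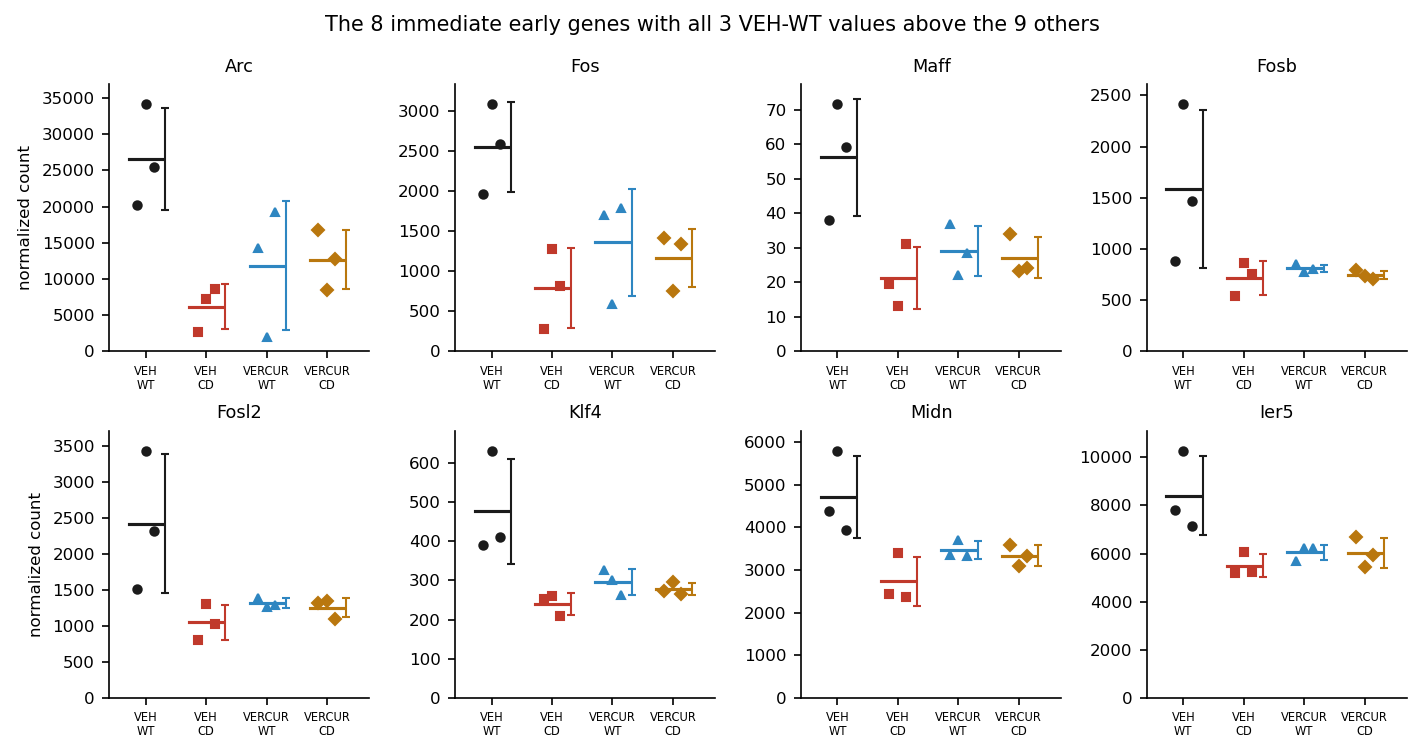
Normalized counts (vertical axes, each from 0) of the 8 immediate early genes whose VEH-WT values all lay above those of the 9 other mice, with 1 point per mouse, a line at the group mean and a bar of ± 1 SD (n = 3). In Fosb, Fosl2 and Klf4 the 9 other mice lie close together, whereas in Arc they run from 1948 to 19267.

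Within VEH-WT the 3 mice were not alike. VEH-WT 2 was the highest of the 3 in 23 of the 26 immediate early genes, in 22 of 26 activity-induced effector genes and in 15 of 18 heat shock chaperones, compared with 6369 of all 17111 genes tested. It was the highest in 10 of 24 glucocorticoid-responsive genes and in 3 of 21 beta protocadherins. As the median over the immediate early genes of the log2 difference from each gene's mean over 12 mice, VEH-WT 1, 2 and 3 stood at 0.31, 0.84 and 0.53. The 9 others ran from -0.70 (VEH-CD 1) to 0.08 (VERCUR-CD 1), so that no other mouse reached the lowest VEH-WT mouse. Without VEH-WT 2 the median difference of the list was 0.58 in place of 0.73. For the astrocyte markers the median log2 difference from each gene's mean was 0.04, -0.25 and 0.08 in VEH-WT 1, 2 and 3, and -0.28 in VEH-CD 2. For the mitochondrially encoded genes it was -0.06, -0.30 and 0.02 in VEH-WT 1, 2 and 3, and -0.30 in VEH-CD 2. The cause of these differences between mice was not tested.

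The slower activity-induced effector genes were higher in VEH-WT in 26 of 26, with 14 at an unadjusted p under 0.05 and a median log2 difference of 0.28, which was 0.17 without VEH-WT 2. Gem, a small GTP-binding protein that inhibits calcium channels, had 82.9, 169 and 97.3 in VEH-WT and 39.7 to 75.9 (median 58.7) in the others. Of the 19 feedback inhibitors of the MAPK pathway 17 were higher, 8 of them at an unadjusted p under 0.05, with a median of 0.22. Dusp5, a phosphatase of ERK, had 725, 1193 and 760.5 in VEH-WT and 265 to 715 (median 457) in the others, with VERCUR-CD 1 just below the lowest VEH-WT mouse. None of these genes was called. Of the 18 genes of the SIK and CREB pathway 15 were higher, with 3 at an unadjusted p under 0.05.

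Glucocorticoid-responsive genes were higher in VEH-WT in 21 of 24, with 13 at an unadjusted p under 0.05, a median of 0.36 and Gadd45a as the single called member. Sgk1, a kinase gene induced by glucocorticoids, had 2464, 4605 and 5065 in VEH-WT and 1702 to 2794 (median 2279) in the others, with VEH-WT 1 inside their range. Tsc22d3, another glucocorticoid target, had 3221, 4665 and 4533 in VEH-WT and 2221 to 3446 (median 2774) in the others. In both genes VEH-WT 1 overlapped and its groupmates did not. Among the heat shock chaperones 16 of 18 were higher, 10 at an unadjusted p under 0.05, with a median of 0.14. Hspa1a, which shares reads with its near-identical neighbour Hspa1b, had 959, 1991 and 1299 in VEH-WT and 715 to 969 (median 844) in the others. Of the 20 chaperones of the endoplasmic reticulum 19 were higher, 10 at an unadjusted p under 0.05, with a median of 0.13, and Hspa5 had 13553, 17815 and 14928 in VEH-WT and 9965 to 15505 (median 11734) in the others. None of either list was called. Per1 and Tiparp stand in 2 of the lists above, so the lists are not separate.

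The Kruppel-like factors did not move together. Of 14, 11 were higher in VEH-WT with a median of 0.09, Klf2 and Klf4 were called, and Klf6 was lower, with 2612, 2494 and 2545 in VEH-WT against 2649 to 3553 (median 2959) in the others. The beta protocadherins were higher in 19 of 21, 9 at an unadjusted p under 0.05, with a median of 0.25. The median of their differences was 0.40 from VEH-CD, 0.31 from VERCUR-CD and 0.10 from VERCUR-WT, and 4 of the 21 had an unadjusted p under 0.05 among the 3 other groups. Pcdhb6 had 111, 91.2 and 109 in VEH-WT, 108, 79.7 and 96.6 in VERCUR-WT and 85.7, 54.8 and 53.9 in VEH-CD, where the WT groups overlapped. Genes of this cluster are near-identical in part, so reads may have been shared among them.

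Of the 14 genes of the NF-kappa B pathway 11 were higher, with 4 at an unadjusted p under 0.05, a median of 0.10 and none called. Their summed normalized counts were 8488 to 9053 in VEH-WT and 8070 to 8332 in the 9 others, without overlap. The 4 genes were Nfkbia, Relb, Nfkbiz and Rel, named after their values were seen. Nfkbia, an inhibitor of NF-kappa B that the factor itself induces, had 864, 1102 and 1186 in VEH-WT and 666 to 881 (median 774) in the others, so that VEH-WT 1 lay inside their range. It stands among the glucocorticoid-responsive genes as well.

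Of the 20 circadian clock genes 17 were higher, with 3 at an unadjusted p under 0.05 and a median of 0.12. The NRF2 antioxidant targets had 9 of 16 higher, with 1 higher and 2 lower at that level, and a median of 0.02. The cytosolic ribosomal protein genes were all lower in VEH-WT (36 of 36), with a median of only -0.09 and none at an unadjusted p under 0.05. The nuclear respiratory chain genes (18 of 25 lower, median -0.03), the mitochondrially encoded genes (13 of 13 lower, median -0.16), the inflammasome genes (8 of 11 lower, median -0.21) and the interferon-responsive genes (15 of 20 lower, median -0.08) had at most 1 gene each at that level. The 22 extracellular matrix genes were split evenly, 11 in each direction.

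**Figure D4:**
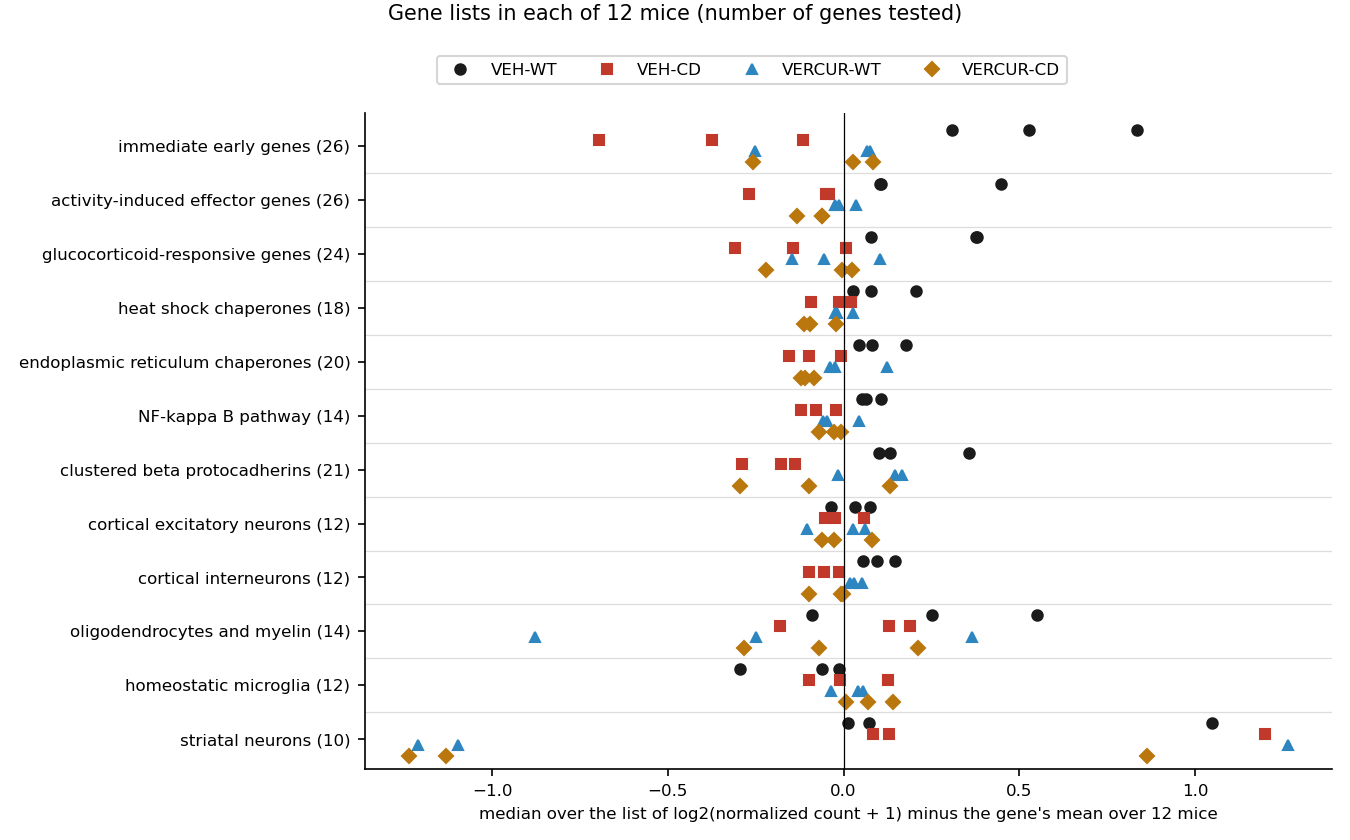
Median over each list of log2(normalized count + 1) minus the gene's mean over 12 mice (horizontal axis), with 1 point per mouse, for 12 lists (rows, with the number of genes tested). The VEH-WT mice lie to the right of all others for the immediate early, activity-induced effector, NF-kappa B and interneuron genes, meet them at the lowest VEH-WT mouse for the heat shock chaperones, overlap them for the beta protocadherins, and are scattered with the other groups for the oligodendrocyte and striatal markers.

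Markers of the cell types in the tissue were examined beside these lists. Excitatory neuron markers, which define the tissue, were present in all mice, with summed normalized counts of 302100 to 325800 in VEH-WT and 299600 to 370900 in the 9 others, and 7 of 12 higher. Oligodendrocyte and myelin markers were higher in 14 of 14, with a median of 0.32 and 1 at an unadjusted p under 0.05. Their sums were 158200 to 249000 in VEH-WT, 148300 to 187600 in VEH-CD, 87460 to 222500 in VERCUR-WT and 134400 to 190400 in VERCUR-CD, and so overlapped. Microglial markers were lower in 10 of 12, 4 at an unadjusted p under 0.05, with sums of 19230 to 22820 in VEH-WT and 21090 to 24850 in the others. Their median log2 difference from each gene's mean over 12 mice was -0.06, -0.29 and -0.01 in VEH-WT 1, 2 and 3. In the 9 others it ran from -0.10 to 0.14, so that only VEH-WT 2 lay below them. Striatal markers had 10 of 10 higher, with sums of 24240 to 45450 in VEH-WT and 13610 to 50500 in the others. They varied between mice of every group. Endothelial markers, among which Klf2 is listed, had 5 of 14 higher and sums of 17110 to 18740 in VEH-WT and 14680 to 19470 in the others. Interneuron markers were higher in 10 of 12, with a median of 0.12 and 2, Gad1 and Lhx6, at an unadjusted p under 0.05. Their sums were 79470 to 83990 in VEH-WT and 72500 to 79470 in the others, and as the median log2 difference from each gene's mean over 12 mice the VEH-WT mice stood at 0.06 to 0.14, above the 9 others (-0.10 to 0.05). Gad1, an enzyme of GABA synthesis, had 16183, 15179 and 16987 in VEH-WT and 12924 to 14843 (median 14108) in the others, without overlap. The part of any of these cell types in the differences described was not tested. Markers of red blood cells (5 of 5 lower), astrocytes (9 of 12 lower), oligodendrocyte precursors (5 of 8 higher), border-associated macrophages (5 of 9 higher), mural cells (5 of 10), meningeal fibroblasts (6 of 12) and choroid plexus (6 of 9 higher) held no called gene, and neither did the interneuron markers.

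To place VEH-WT among the groups, each group was set against the mean of the remaining 3 in the same way. VEH-WT had 1823 genes at an unadjusted p under 0.05 (10.7% of those tested), VEH-CD 1237 (7.23%), VERCUR-CD 807 (4.72%) and VERCUR-WT 535 (3.13%). Outside the deleted interval, limma called 18 genes for VEH-WT, 4 for VEH-CD, 7 for VERCUR-WT and 9 for VERCUR-CD. In 13, 0, 4 and 1 of these called genes, in the same order, the group lay apart from the 9 other mice. Over all genes tested, called or not, VEH-WT lay above the 9 others in 1.43% and below them in 0.964%. The shares above and below were 0.695% and 0.532% for VEH-CD, 0.175% and 0.263% for VERCUR-WT, and 0.281% and 0.427% for VERCUR-CD. All 4 contrasts use the same 12 mice, and whether their counts differ was not tested. Compared with single groups, VEH-WT had 44 called genes against VEH-CD, 34 against VERCUR-CD and 0 against VERCUR-WT, where 893 genes (5.22%) had an unadjusted p under 0.05 and the smallest adjusted p was 0.206.

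Few genes were called at the low end of the contrast. VEH-WT lay below the 9 others in 165 genes (0.964% of those tested), of which 5 were called: Hist1h2ap, Zfp991, Gm4544, Gm43672 and Lemd1. Among those not called, the 7 with the largest differences under the rule for named genes (a mean of at least 50 and a name other than a gene model) had an unadjusted p under 0.05 and adjusted p from 0.158 to 0.215, and log2 differences in the range of the called genes Gm4544 to Lemd1 or just under it. They were Etfbkmt, a mitochondrial methyltransferase, with 69.5, 40.4 and 63.5 in VEH-WT against 71.2 to 111 (median 83.9), Eif4ebp1, an inhibitor of translation initiation, with 118, 124 and 145 against 159.8 to 231 (median 180.0), and Jsrp1, Lcmt2, Zfp867, Saxo2 and the pseudogene Rpl17-ps10, with log2 differences from -0.53 to -0.46. The highest value of the 7 genes in any mouse was 390.5, in Lcmt2.

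How far the 34 calls rest on single mice was examined by leaving out each mouse in turn. Without VEH-WT 2, 15 genes were called and none of the 13 with VEH-WT apart was among them. Without VEH-WT 3 there were 20, of which only Cdr2l belonged to the 13, and without VEH-WT 1 there were 31, of which 6 did. The number of the 13 still called was 5 without VEH-CD 1 or VEH-CD 3, 6 without VERCUR-CD 3 and 7 without VERCUR-WT 1 or VERCUR-WT 2, and 9 to 13 without the 4 other mice. The 34 called genes, and the 10 further named genes that were not called, kept their direction in each of these fits in which they were tested. The deleted genes were steadier, and 12 of the 16 were called without any single mouse. When the 9 other mice were fitted as 1 group, with the differences among them in the spread, no gene was called (smallest adjusted p = 0.0662, 1829 genes at an unadjusted p under 0.05), against 33 by voom on the recovered reads with the 4 groups kept apart.

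**Figure D5:**
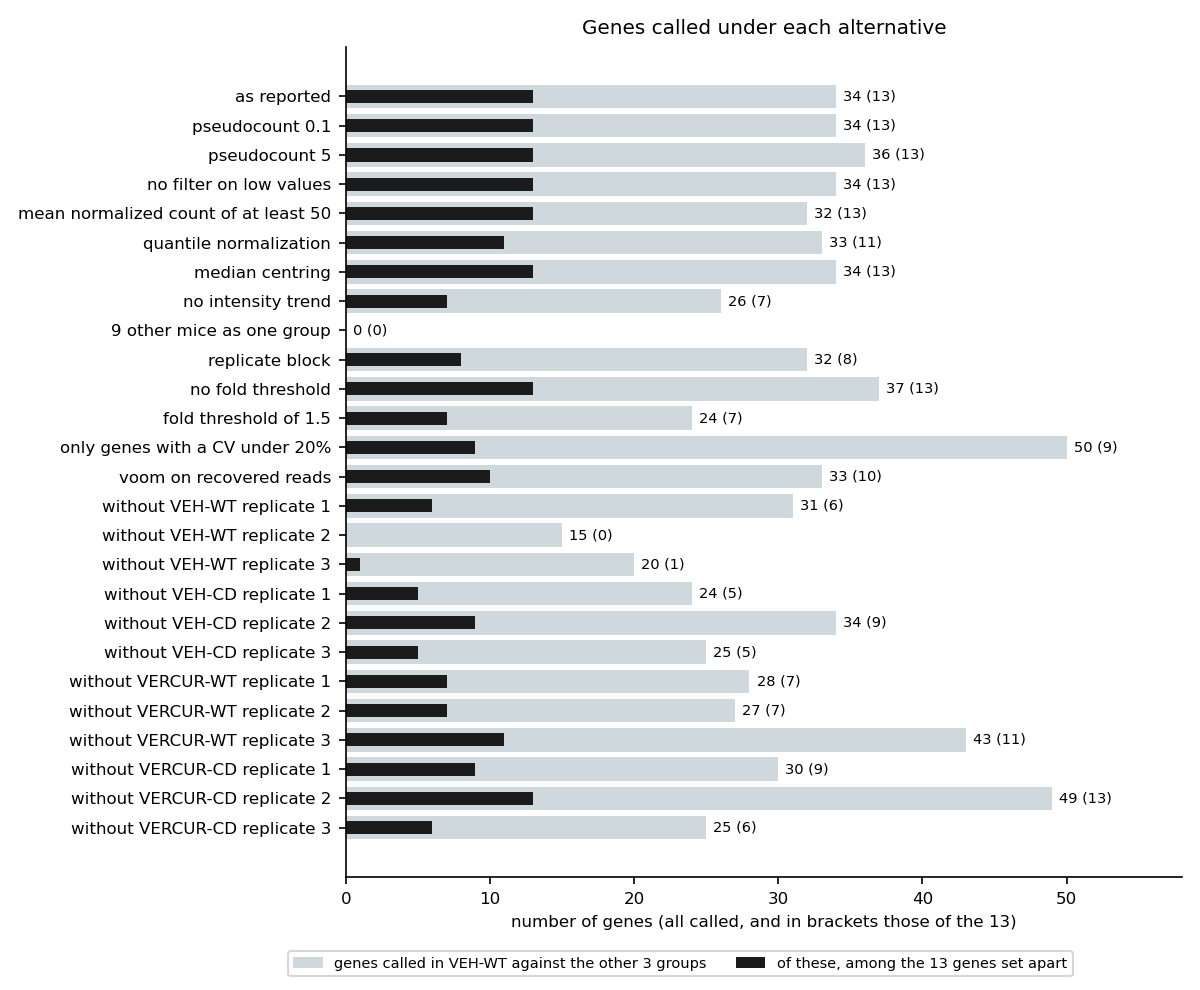
Number of genes called in VEH-WT against the other 3 groups (grey bars) and number of the 13 genes with VEH-WT apart among them (black bars) under each alternative (rows). Removal of the farthest value of noisy groups, with 970 called, is not drawn, and the shortest black bars are those without VEH-WT 2, without VEH-WT 3 and with the 9 other mice as 1 group.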

How the data were processed

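RNA from the cortex of 12 mice, 3 per group, was sequenced. Paired-end reads were aligned by the authors with STAR 2.5.3a (GRCm38), then counted on genes and scaled by 1 factor per sample. The deposited values are these normalized counts, treated here as a score because they are not raw counts. The counting program, its use of strand and the normalization are not given in the sources used here, so overlapping and near-identical genes are uncertain. The depth was taken from the step between low values, of which 100% were whole numbers of steps within 0.1 of a step. Counting error, which weighs most in low genes such as Hist1h2ap and Gm45351, was not separated from the spread between mice. The deposited tables of the authors' own comparisons, which hold expression relative to VEH-WT, were not used.

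A model was fitted with limma 3.58.1 (R 4.3.3) to log2(normalized count + 1) of all 12 mice, with 4 group means and an intensity trend, over the 17111 of 17202 genes with a mean of at least 10. Contrasts were two-sided, with Benjamini-Hochberg adjustment. The members and the lists were chosen with earlier results of these data known. Named genes were, outside the deleted interval, the called genes with a mean of at least 50, a name other than a Gm number or Rik clone and no overlap (15 highest, 15 lowest, filled to 10 per direction with genes of unadjusted p under 0.05), the called members of each list (up to 4), those passing the F test (up to 6), the 2 genes on either side of the threshold and the extremes of the deleted interval. Further genes are named in the text as examples of their lists, with their values known. The 19 symbols listed for more than 1 gene were left out of the lists. Genes were placed with GENCODE M21, in which 17181 were found. The fit was tested on simulated data.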

Additional observations from a re-analysis of the deposited data

How the results depend on the processing

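The direction of the 34 called genes and of the 10 further named genes was kept under every alternative in which they were tested: pseudocounts (0.1 and 5), filters (none, or a mean of 50 and more), quantile normalization, median centring, no intensity trend, the 9 other mice as one group, the replicate block, other fold thresholds, genes with a CV under 20%, removal of single values, voom and the leaving out of each mouse. Under the alternatives that kept all mice, the number called ranged from 24 (fold threshold of 1.5) to 50 (only genes with a CV under 20%), with 2 exceptions. It was 0 with the 9 other mice as one group, where limma's adjusted p of the 13 genes with VEH-WT apart ran from 0.0662 to 0.188. It was 970 when groups with a CV from 20% upward lost their farthest value, which by construction narrows the groups. That removal also gave 858 genes for the F test, 448 for VERCUR-CD against VERCUR-WT, 241 for VERCUR-CD against VEH-CD, and 521, 567 and 370 for VEH-CD, VERCUR-WT and VERCUR-CD against the remaining groups. Of the 13 genes, 7 were called without the intensity trend, 7 at a fold of 1.5, 8 with the replicate block and 0 with the 9 others as one group. Leaving out each mouse gave 15 to 49 calls for VEH-WT and 0 to 13 of the 13 genes. It gave 23 to 30 for the F test, 23 to 28 for VERCUR-CD against VERCUR-WT and 0 to 2 for VERCUR-CD against VEH-CD, and 14 to 20, 17 to 24 and 19 to 25 for the 3 other groups against the rest. The replicate block gave 32 calls, of which 27 were among the 34. Correlations of deviations ran from -0.347 to 0.267 (median 0.0208) between mice of the same number. Between mice of different numbers they ran from -0.235 to 0.325 (median -0.0139). The labels do not say whether the numbers mark litters or batches, and this was not tested. Apart from the replicate block and these correlations, the numbers are used here only to name the mice. Voom on the reads recovered from the steps, chosen after seeing the data, gave 33 calls, 3 of them lower in VEH-WT against 6. Count models on recovered reads (edgeR and DESeq2) were listed and not run. Medians of 0.51 for the glucocorticoid-responsive genes without VEH-WT 1 and of 0.05 for the circadian clock genes without VEH-WT 2 moved by more than the spread between mice. The cause of these changes was not tested.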
